A study of Mus musculus with 35 samples.

Results

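The comparison set 3 medial prefrontal cortex (mPFC) libraries from Shank3-deficient mice given antibiotics (KO_abx) against 4 libraries from wild-type mice given antibiotics (WT_abx), 7 of the 35 libraries of the series, over all 14870 genes of the matrix. The other 28 libraries come from wild-type (WT) and Shank3-deficient (KO) mice that received water, acetate, or acetate together with antibiotics, and entered the fit, where they add to the estimates of each gene's spread and of the sex term. They also supply the genotype differences of the other treatments given for reference. Libraries were chosen by the genotype and treatment in their labels, and each is named by its group and a number that carries no pairing. The mutant allele, the strain, the age of the mice, and the antibiotics with their dose and duration are not stated in the sources used here. Tissue was taken as punches of bulk mPFC, a cortical area engaged in social behaviour. Whether every library comes from its own animal is not stated, and the p-values then measure only how much these libraries vary, which may be technical in part.

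Shank proteins are large scaffolds beneath the membrane of excitatory synapses, where they tie glutamate receptor complexes, through SAPAP and Homer proteins, to the actin cytoskeleton. Loss of SHANK3 causes Phelan-McDermid syndrome, and mice that lack it are used as a model of autism. Antibiotics deplete the gut bacteria that ferment fibre to short-chain fatty acids such as acetate, and the comparison asks how WT and KO cortex differ in mice given antibiotics. The data used here do not measure how far those bacteria were depleted in these mice.

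The 7 libraries held 19.25 to 24.83 M reads over the listed genes, and their RNA integrity numbers were 8.9 to 9.3. WT_abx has 2 males and 2 females by label, and KO_abx has 2 males and 1 female. Cortical markers were high in each library, with the vesicular glutamate transporter Slc17a7 at 10.51 to 11.03 log2 CPM (log2 of read counts scaled to library size) and the upper-layer factor Cux2 at 6.72 to 7.30. A pair of WT libraries went against their labels. The library labelled WT_abx 4 had intermediate Shank3 and stood apart in markers of meninges and choroid plexus, so the called genes and the list medians are given with and without it. The label of WT_abx 3 says female, but this library had its Y-linked genes at a mean of 4.90, within the range of the labelled males (4.81 to 4.97), against 0.52 in the library labelled WT_abx 4 and 0.93 in KO_abx 3. Its group was kept, and the fit used the labelled sex. By Y-linked level the library labelled WT_abx 4 was thus the only WT_abx library like a female. Without it WT_abx 1 to 3 all had male levels while KO_abx 3 did not. Genotype and sex are then partly confounded in every result given without that library, and the term for labelled sex cannot separate them.

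Only 2 of the 14870 genes passed an adjusted p of 0.05 (0.0134%): Shank3 was lower (0.00672% of genes) and Acr was higher (0.00672%) in KO. Without the library labelled WT_abx 4, Fgl1 joined them, also higher, for 3 genes in all (0.0202%). At an unadjusted p under 0.05 there were 562 genes (3.78%), 239 higher (1.61%) and 323 lower (2.17%), and without that library 496 (3.34%), 246 higher (1.65%) and 250 lower (1.68%). The values of the 3 KO and 4 WT libraries did not overlap for 793 genes (5.33%), 393 of them higher in KO (2.64%) and 400 lower (2.69%). Those of 3 against 3 did not overlap for 1532 (10.3%), 783 higher (5.27%) and 749 lower (5.04%). The median log2 fold over all genes was 0.0009 with 49.7% below 0, and without the library labelled WT_abx 4 it was 0.0053 with 48.5% below 0. The median standard error (SE) of a log2 fold was 0.13.

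Shank3 (chromosome 15, 89499623 to 89560261, plus strand, GRCm38) was at 4.71, 4.53 and 4.91 log2 CPM in KO_abx 1 to 3, or 550, 504 and 609 reads. The WT libraries held 8.68, 8.30, 8.27 and 7.48, or 9465, 7783, 6891 and 3574 reads. The groups did not overlap, and the library labelled WT_abx 4 was the lowest of the WT libraries. Shank3 was 11.2-fold lower in KO, a log2 fold of -3.48 ± 0.20 (SE), with 4.72 ± 0.19 in KO (SD, n = 3) against 8.18 ± 0.50 in WT (SD, n = 4) and an adjusted p = 2.33e-13 in limma. Without that library it was 13-fold lower (-3.70 ± 0.18, adjusted p = 6.95e-15). The exact 2-sided permutation test gave p = 0.0286, the smallest that 35 assignments allow, and p = 0.10 with 3 against 3, again the smallest possible. Its relatives Shank1 and Shank2 had log2 folds of 0.07 ± 0.15 and 0.13 ± 0.15 with overlapping groups, and neither passed the threshold.

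Acr encodes acrosin, a protease of the sperm acrosome, and is the next gene on the strand of Shank3, starting 8.1 kb past its end (chromosome 15, 89568326 to 89574585). In KO_abx it was at 5.62, 5.53 and 5.63 log2 CPM (1035, 1013 and 1001 reads). In WT_abx 1 to 3 it was at -0.04, -0.14 and 0.45 (22, 22 and 30 reads), and in the library labelled WT_abx 4 at 4.56 (471 reads). The KO values therefore lay within 0.10 of each other, while the WT values split into 3 near 0 and 1 between these and the KO libraries. The log2 fold was 4.48 ± 0.77 (22.3-fold higher in KO, adjusted p = 0.0165 in limma) with all 4 WT libraries and 5.50 ± 0.63 (45.3-fold, adjusted p = 8.64e-06) with 3. In the exact permutation test p was 0.0571 with 4 WT libraries. Acr lost its call when any 1 of the other 6 libraries was left out (adjusted p = 0.0726 to 0.210) and when only the 7 antibiotic libraries were fitted (adjusted p = 0.996), settings that all keep the library labelled WT_abx 4. In 2 of the 5 WT libraries given acetate Acr was likewise raised, at 3.62 and 4.46 against 0.30 to 0.50 in the other 3, and these libraries enter the shared estimate of its spread. Without the 3 libraries of intermediate Shank3, this pair included, the log2 fold of Acr was 5.50 (adjusted p = 1.18e-16).

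Fgl1 (chromosome 8, 41191434 to 41215156, minus strand) encodes a secreted fibrinogen-like protein of the liver that also binds the immune checkpoint receptor LAG-3. It was at 1.70, 0.89 and 1.94 log2 CPM in KO_abx and at -1.14, -0.42, -0.84 and 0.95 in WT_abx, which is 40 to 77 reads against 10 to 38. Only the library labelled WT_abx 4 reached into the KO range. The log2 fold was 1.89 ± 0.44 (adjusted p = 0.544), and without that library Fgl1 was higher by 2.31 ± 0.42 (4.95-fold, adjusted p = 0.0274 in limma). That call was lost when WT_abx 1, 2 or 3 or KO_abx 1 or 3 was also left out, when only antibiotic libraries were fitted, and when 4 libraries with Y-linked levels at odds with their labelled sex were dropped. A filter at a mean of 2 log2 CPM removes the gene. The separate comparison of KO with WT in the water group gave 2.08 ± 0.37 (adjusted p = 0.0178), that in the acetate group 1.68 ± 0.36 (adjusted p = 0.333), and that under antibiotics with acetate 1.47 ± 0.42 (adjusted p = 0.862). The genotype difference under antibiotics minus that in control was -0.19 ± 0.57, which did not pass.

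On the linear CPM scale the library labelled WT_abx 4 lay near the middle between the genotypes for all 3 of these genes. Its Shank3, 179.1 CPM, had gone 51.9% of the way from the mean of the other WT libraries (344.2 ± 56.1, SD, n = 3) to the KO mean (26.4 ± 3.5, SD, n = 3). For Acr the share was 47.7% (23.6 CPM between 1.08 and 48.3), and for Fgl1 56.2% (1.93 between 0.587 and 2.98). What made the library intermediate was not tested. The same library carried 1854 reads of the choroid plexus transthyretin gene Ttr against 1 to 14 in the other 6, and 2012 reads of the meningeal collagen-binding gene Fmod against 139 to 970.

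**Figure D1:**
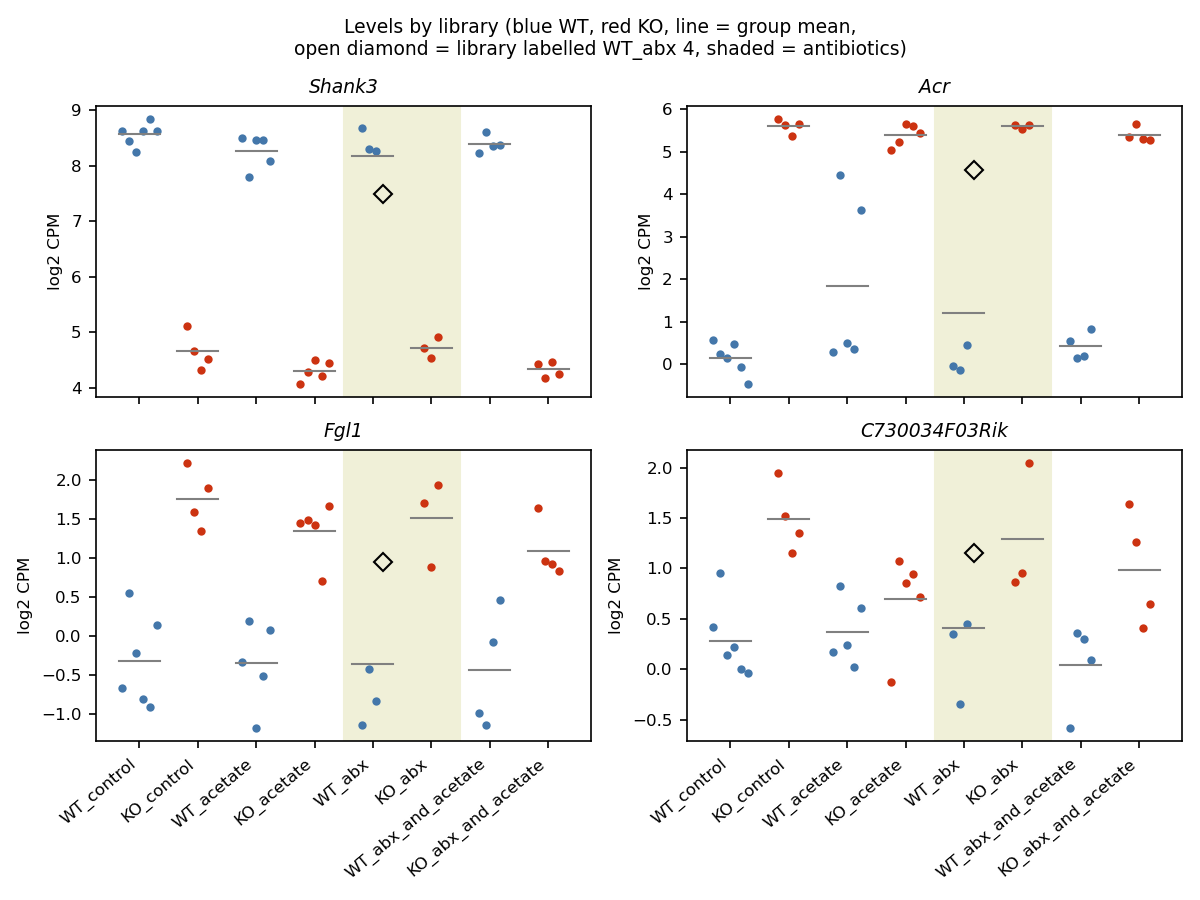
Levels of Shank3, Acr, Fgl1 and C730034F03Rik in log2 CPM (vertical axes) in every library of the 8 groups (horizontal axis), blue for WT and red for KO, with a line at each group mean and the groups given antibiotics alone shaded. The open diamond is the library labelled WT_abx 4, which for Shank3 (7.48) and Acr (4.56) lies between the other 3 WT_abx libraries and the 3 KO_abx libraries.

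Acr and Shank3 were the only members of the neighbourhood to pass. Of the 5 measured genes on the other side of Shank3, the lysosomal arylsulfatase Arsa was at 0.11 ± 0.11 on the log2 fold scale, the JNK scaffold gene Mapk8ip2 at -0.01 ± 0.07, the choline kinase gene Chkb at 0.16 ± 0.15 and the carnitine palmitoyltransferase gene Cpt1b at -0.60 ± 0.73. The remaining gene, the transcript C730034F03Rik (89429589 to 89430868), was at 0.87, 0.96 and 2.05 log2 CPM in KO_abx and at 0.35, -0.34, 0.45 and 1.16 in WT_abx. Its log2 fold was 0.89 ± 0.36 (adjusted p = 0.995), and 1.14 ± 0.36 (adjusted p = 0.976) with 3 WT libraries, where the groups did not overlap. It overlaps Chkb on the opposite strand, and the sources used here do not say whether counting used strand, so reads of the pair may not be told apart. Beyond Acr, the GTPase gene Rabl2 was at 0.31 ± 0.15, and Syt10, Alg10b and Cpne8 lay between 0.00 and 0.15.

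No other gene passed, so the rest of the ranking is given as values. Among genes with a mean of at least 0 log2 CPM and no overlap between KO_abx and WT_abx 1 to 3, the 12 with the smallest p in each direction were Acr, Fgl1, Fam212a, D930015E06Rik, Armc2, Gm21949, Spice1, Derl3, Hes5, Adgrv1, Fbxo10 and Tmem116 on the higher side, and Shank3, Idi1, Plpp6, Twistnb, Gm2897, Lrrc2, Rheb, Sf3b6, Pcdha5, Slc35f2, Rpl31 and Cnbp on the lower. Because lack of overlap and p chose them, their folds describe the choice and are no evidence of an effect.

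On the higher side, Fam212a was at 0.75, 0.61 and 0.73 log2 CPM in KO_abx and at -0.40, -0.34, -1.23 and 0.24 in WT_abx, a log2 fold of 1.17 ± 0.28 (adjusted p = 0.544), and 1.36 ± 0.28 without the library labelled WT_abx 4 (adjusted p = 0.176). All 3 KO libraries were above all 4 WT libraries. Armc2, needed for assembly of the sperm and cilium axoneme, was at 3.31, 3.27 and 3.41 against 2.73, 2.84, 2.44 and 2.73, and again the groups were apart (0.64 ± 0.15, adjusted p = 0.544). Derl3, which helps remove misfolded proteins from the endoplasmic reticulum, was at 0.27, 0.33 and 0.64 against -0.40, -1.24, -0.84 and -0.19 (1.10 ± 0.31, adjusted p = 0.995). Hes5, a Notch target that keeps progenitors undifferentiated, was at 4.45, 4.27 and 4.18 against 3.50, 3.61, 3.34 and 4.25, so that the library labelled WT_abx 4 fell among the KO libraries (0.63 ± 0.23, and 0.81 ± 0.23 without it). The same library overlapped the KO values for Spice1, a centriole duplication gene, Adgrv1, the large adhesion receptor of Usher syndrome, and Tmem116.

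On the lower side, Idi1, the isopentenyl diphosphate isomerase of the mevalonate pathway, was at 5.20, 5.62 and 5.54 log2 CPM in KO_abx and at 6.18, 5.85, 5.77 and 5.86 in WT_abx (-0.45 ± 0.13, adjusted p = 0.995). Gm2897, a predicted gene on chromosome 14, was at -0.54, -0.93 and -0.58 against 0.70, 0.04, 0.25 and 0.61 (-1.09 ± 0.27, adjusted p = 0.671). Lrrc2 was at -0.35, 0.53 and 0.59 against 1.21, 1.19, 1.12 and 0.87 (-0.81 ± 0.27), and Slc35f2 at 1.61, 1.84 and 1.32 against 2.38, 2.07, 2.11 and 2.42 (-0.66 ± 0.18). In these 4 genes all KO libraries were below all WT libraries. Rheb, the GTPase that switches on mTORC1, was at 6.65, 6.78 and 6.62 against 6.95, 6.96, 7.06 and 6.67, with the library labelled WT_abx 4 inside the KO range (-0.22 ± 0.10, and -0.30 ± 0.09 without it). Pcdha5 belongs to the clustered protocadherins, which share exons and give each neuron a surface identity, and its reads may be split among its near copies (-0.38 ± 0.14).

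**Figure D2:**
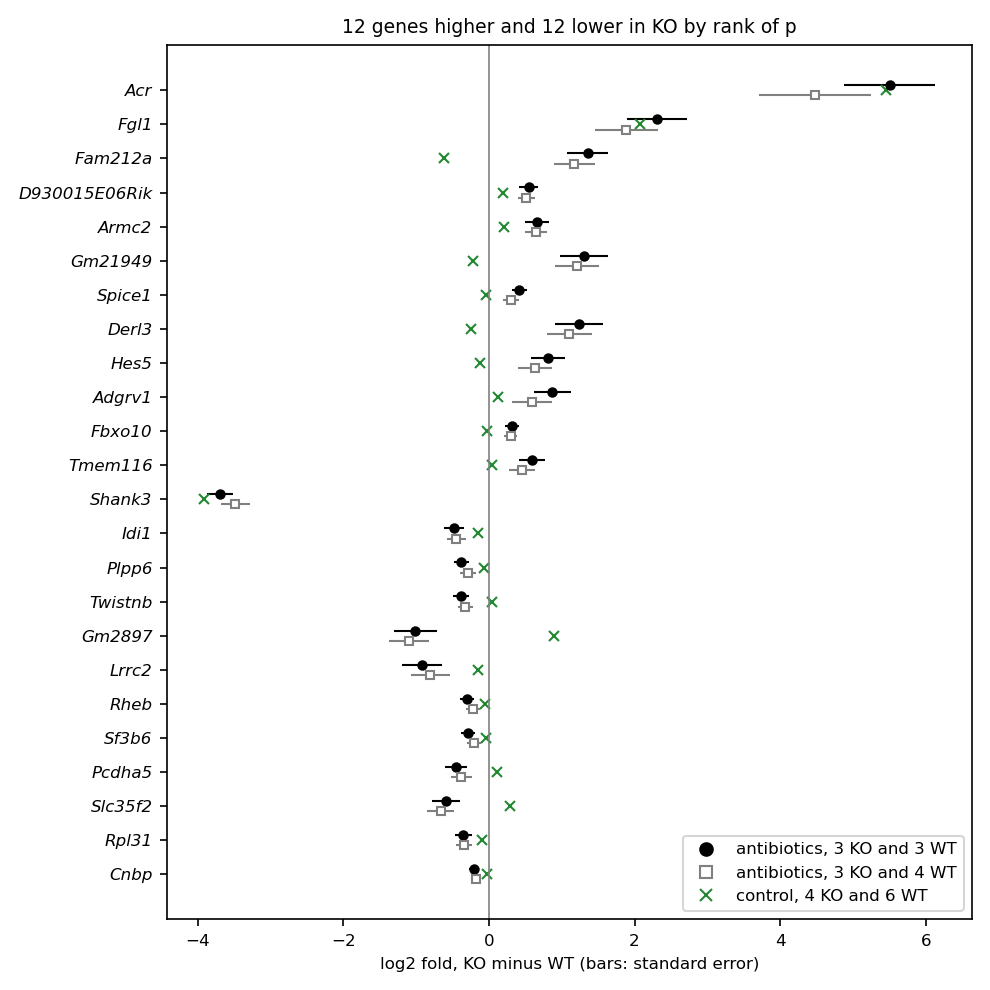
Log2 fold of KO minus WT (horizontal axis, bars are SE) for the 12 genes higher and 12 lower by rank of p, with 3 WT_abx libraries (black), with 4 (open squares) and in the water group (green crosses). The control values sit beside the antibiotic ones for Shank3, Acr and Fgl1, while Fam212a and Gm2897 lie on opposite sides of 0 in the 2 treatments.

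Immediate early genes are transcribed within minutes of synaptic activity, largely through CREB at cyclic AMP response elements and through serum response factor at CArG boxes, and many encode the next wave of transcription factors. Of 32 members, 31 had a log2 fold below 0 under antibiotics, against 49.7% of all genes, with a median of -0.60 (all genes 0.0009). None passed the threshold. At an unadjusted p under 0.05 there were 5 members, all lower (2.17% of all genes were), and 13 without the library labelled WT_abx 4, where 1.68% of all genes were and the median was -0.69. The groups did not overlap for 3 members with 4 WT libraries (2.69% of all genes) and for 12 with 3 (5.04%), all lower in KO. In RefSeq promoter windows (GRCm38.p6, 250 bases before to 50 bases after a start), 25 of the 32 had an entry, with 37 windows in all. The full element TGACGTCA was in 10.8% of these windows against 1.79% of 32851 windows in the table, the core TGACG on either strand, which the full element contains, in 54.1% against 20.8%, and the CArG box in 10.8% against 1.63%. Windows of 1 gene can overlap and hold the same match. By gene, the full element was found in 4 of the 25 (549 of 27025 genes with a window) and the core in 17 (6228 of 27025). The CArG box was found in 1 (488 of 27025), Egr2, whose windows gave all 4 matches. Arc, Egr1 and Egr3 were among the members without an entry, and sites outside the windows were not searched. Windows of 3 members follow, read 5′ to 3′ on the gene's strand, with matches to the core or the full element in capitals, to show how differently these motifs are laid out in genes that had similar folds. They are Fos (chr12:85473640-85473939, plus strand), Nr4a1 (chr15:101266596-101266895, plus strand) and Arl4d (chr11:101665291-101665590, plus strand).
Fos: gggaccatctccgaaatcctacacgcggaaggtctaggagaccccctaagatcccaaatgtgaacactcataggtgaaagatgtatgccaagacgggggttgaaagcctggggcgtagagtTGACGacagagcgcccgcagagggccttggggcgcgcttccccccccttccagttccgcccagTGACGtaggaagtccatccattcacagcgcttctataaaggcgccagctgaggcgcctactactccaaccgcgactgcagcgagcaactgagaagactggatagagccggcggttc
Nr4a1: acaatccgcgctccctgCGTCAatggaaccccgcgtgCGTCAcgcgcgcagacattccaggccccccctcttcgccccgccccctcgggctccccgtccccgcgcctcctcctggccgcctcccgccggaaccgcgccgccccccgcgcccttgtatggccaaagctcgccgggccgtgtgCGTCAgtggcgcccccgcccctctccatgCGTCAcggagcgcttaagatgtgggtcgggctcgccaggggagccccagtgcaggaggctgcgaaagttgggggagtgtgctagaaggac
Arl4d: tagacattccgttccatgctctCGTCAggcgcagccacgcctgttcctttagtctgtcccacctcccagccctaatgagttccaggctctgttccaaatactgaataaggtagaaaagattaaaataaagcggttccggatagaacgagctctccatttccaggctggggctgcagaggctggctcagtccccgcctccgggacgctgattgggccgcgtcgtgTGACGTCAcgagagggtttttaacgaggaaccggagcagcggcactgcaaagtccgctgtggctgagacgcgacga

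The 3 members with the smallest p were Fosl2, Tiparp and Arl4d. Fosl2, an AP-1 subunit, was at 4.54, 5.03 and 4.97 log2 CPM in KO_abx and at 6.24, 5.27, 5.73 and 5.54 in WT_abx, all KO values below all WT values (-0.83 ± 0.29, adjusted p = 0.995). Tiparp, a mono-ADP-ribosyltransferase that dampens the aryl hydrocarbon receptor, was at 3.01, 3.43 and 3.54 against 4.73, 3.52, 3.80 and 3.96 (-0.66 ± 0.26). The small GTPase gene Arl4d, whose window above holds 1 full element and 3 matches to the core, was at 3.43, 3.44 and 4.20 against 4.95, 4.19, 4.50 and 4.09 (-0.74 ± 0.30). In the last 2 genes the groups met at their edges, at KO_abx 3.

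Better-known members, chosen after their values were seen, had larger errors. Arc, which drives internalisation of AMPA receptors, was at 6.61, 7.05 and 7.98 log2 CPM in KO_abx and at 9.61, 7.81, 8.54 and 7.98 in WT_abx (-1.23 ± 0.61). Fos was at 3.73, 4.48 and 5.18 against 6.50, 5.22, 5.50 and 4.66 (-1.0 ± 0.56), and Egr2 at 2.05, 2.43 and 3.60 against 5.17, 3.48, 4.24 and 3.0 (-1.24 ± 0.70). Nr4a1, an orphan nuclear receptor with 4 core matches in its window, was at 6.65, 6.24 and 7.32 against 8.28, 6.93, 7.69 and 7.16 (-0.76 ± 0.41). In all 4 genes WT_abx 1 was the highest library and KO_abx 3 the highest KO library. Jun was the exception to the direction, at 0.19 ± 0.17.

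To score a list, each member was centred on its mean over the 35 libraries and the members were averaged within a library. The scores were 0.86, 0.01, 0.29 and -0.07 in WT_abx 1 to 4 and -0.48, -0.30 and -0.11 in KO_abx 1 to 3. All KO scores lay below all WT scores, and all lay inside the range of the other 28 libraries (-0.76 to 0.96). The list median was -0.36 without WT_abx 1, the library with the highest score. The separate comparisons of KO with WT gave list medians of -0.89 in control (30 of 32 below 0, against 50.7% of all genes), -0.02 under acetate (17 of 32, against 50.9%) and -0.14 under antibiotics with acetate (22 of 32, against 49.2%). No member passed the interaction between antibiotics and control.

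**Figure D3:**
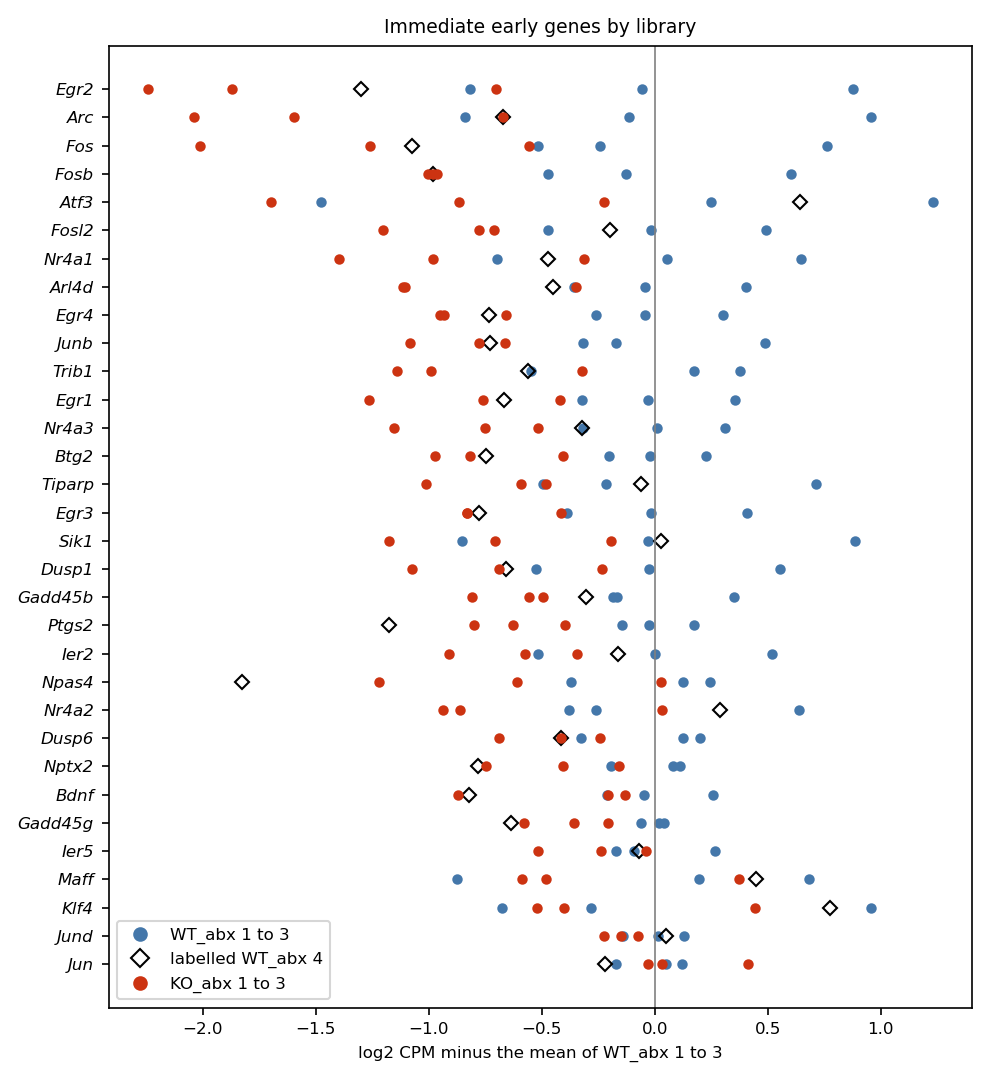
Immediate early genes (rows) by library, each point the log2 CPM minus the mean of WT_abx 1 to 3, with blue for WT_abx 1 to 3, red for KO_abx and an open diamond for the library labelled WT_abx 4. Most red points lie to the left of 0, and WT_abx 1 lies to the right in rows such as Arc and Egr2.

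Genes of respiration and of the ribosome lay slightly below 0 as groups. The log2 fold was below 0 for 35 of 36 nuclear subunits of complex I, which oxidises NADH (median -0.14), for 25 of 25 subunits of complexes II to IV (-0.17), for 17 of 17 nuclear subunits of ATP synthase (-0.13) and for 13 of 13 genes of the mitochondrial genome (-0.16). Without the library labelled WT_abx 4 the 4 medians were -0.16, -0.17, -0.14 and -0.14. No member of these lists passed the threshold, and at an unadjusted p under 0.05 there were 12, 10, 2 and 0 lower members (2.17% of all genes). Ndufa6, an accessory subunit of complex I, was at 5.06, 5.19 and 5.15 log2 CPM in KO_abx and at 5.37, 5.44, 5.34 and 5.53 in WT_abx (-0.28 ± 0.09, adjusted p = 0.995). Cox4i1, a subunit of cytochrome c oxidase, was at 8.55, 8.79 and 8.66 against 8.88, 8.94, 8.82 and 9.03 (-0.25 ± 0.08, adjusted p = 0.995), and Atp5o, the stalk subunit of ATP synthase, at 6.54, 6.63 and 6.55 against 6.76, 6.81, 6.78 and 6.77 (-0.21 ± 0.07). The groups were apart in these 3 genes, each of which was named for the smallest p of its list. In the order of the lists above, KO_abx lay below WT_abx without overlap for 10 of 36, 9 of 25, 8 of 17 and 0 of 13 members, against 2.69% of all genes. The score of the mitochondrial genome was -0.30 in WT_abx 3, below the KO libraries (-0.18 to 0.03), and 0.13 to 0.27 in the other WT libraries.

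Of 79 cytosolic ribosomal protein genes, 77 had a log2 fold below 0, with a median of -0.19. The exceptions were Rpl10 at 0.02 and Rps12, which had 0 reads in 6 of the 7 libraries and 2 in the other. At an unadjusted p under 0.05 there were 48 lower members with 4 WT libraries (2.17% of all genes) and 10 with 3 (1.68%), where the median was -0.15, and the library labelled WT_abx 4 had the highest score of the 7 (0.22, against -0.07 to 0.13 in the other WT libraries and -0.16 to -0.03 in KO). Rpl31, of the large subunit, was at 5.90, 6.04 and 5.94 log2 CPM in KO_abx and at 6.45, 6.42, 6.06 and 6.29 in WT_abx (-0.34 ± 0.11, adjusted p = 0.995). Rpl28 was at 6.71, 6.78 and 6.77 against 7.01, 6.95, 6.89 and 7.12 (-0.24 ± 0.07), and Rpl27 at 3.17, 3.01 and 3.66 against 3.87, 3.71, 3.52 and 3.95 (-0.47 ± 0.15). Reads of ribosomal protein genes can be shared with their many pseudogenes. Of the mitochondrial ribosomal proteins, 57 of 77 had a fold below 0 (median -0.06, and -0.09 with 3 WT libraries), and of the proteasome subunits 25 of 32 (-0.05 and -0.09).

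Many members of these lists have short transcripts, and the log2 fold was higher in longer genes over the whole matrix. The median log2 fold in quintiles of 14405 genes, from the shortest to the longest summed exons, was -0.05, -0.02, 0.00, 0.02 and 0.05, and the share below 0 was 62.9%, 57.4%, 50.2%, 44.5% and 33.4%. The rank correlation between length and log2 fold was 0.22 across genes, which share their libraries and are not independent replicates. Without the library labelled WT_abx 4 it was 0.19. The rank correlation of log2 fold with mean log2 CPM was -0.06 with that library and -0.25 without it. Without it, 33.3% of genes in the quintile of lowest mean log2 CPM had a fold below 0, and 61.9% in the highest. The shortest quintile held 55 of the 79 cytosolic ribosomal protein genes, 26 of 36 for complex I, 19 of 25 for complexes II to IV, and all 13 mitochondrial genes. It held fewer of the others: 8 of 16 ATP synthase genes with a length, 39 of 77 mitochondrial ribosomal proteins and 12 of 32 proteasome subunits. The medians of -0.13 to -0.19 for the respiration and cytosolic ribosome lists lay below the median of the shortest quintile (-0.05). Within each library, the median deviation of the longest quintile minus that of the shortest was -0.03, -0.11, -0.01 and -0.09 in WT_abx and 0.04, 0.01 and 0.10 in KO_abx, so the groups did not overlap. In the other 6 groups the same quantity ran from -0.16 to 0.14 and overlapped between genotypes. RNA integrity numbers were 8.9 to 9.2 in WT_abx and 9.0 to 9.3 in KO_abx, and what part RNA quality or library preparation had in the length pattern was not tested.

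**Figure D4:**
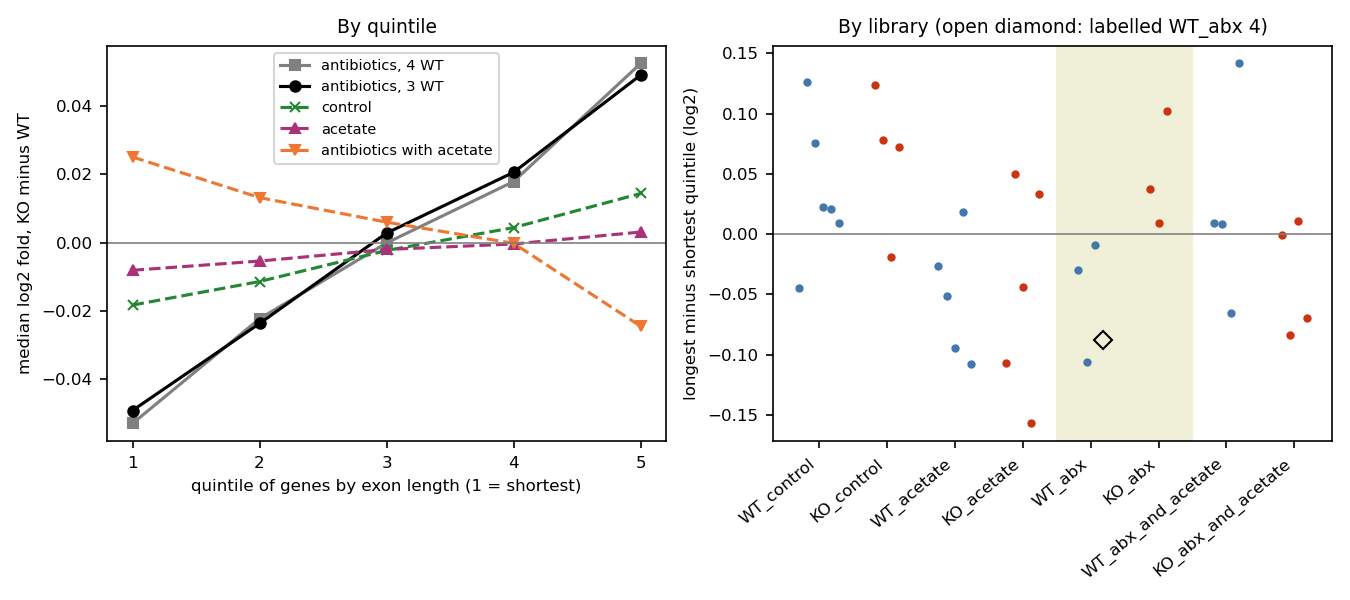
Left, the median log2 fold of KO minus WT (vertical axis) in quintiles of genes by exon length, for antibiotics with 4 or 3 WT libraries and for the 3 other treatments. Right, the longest minus the shortest quintile in each library (log2), where the 3 KO_abx libraries (0.01 to 0.10) lie above the 4 WT_abx libraries (-0.11 to -0.01).

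Synaptic genes are long, and their lists lay slightly above 0 with all 4 WT libraries. Of 26 synaptic adhesion genes, 22 had a log2 fold above 0 (median 0.11), as did 24 of 32 genes of glutamate receptors and their auxiliary subunits (0.10), 25 of 35 postsynaptic scaffolds other than Shank3 (0.05), 29 of 39 neuronal ion channels (0.08) and 24 of 28 autism-associated regulators (0.09). None passed. Without the library labelled WT_abx 4 the glutamate and scaffold medians were 0.01 and -0.0044, with 16 of 32 and 16 of 35 members above 0. Those of adhesion and channels were 0.04 (17 of 26 and 26 of 39 above 0), and that of the autism genes 0.08 (22 of 28). That library had the lowest glutamate and adhesion scores of the compared libraries, -0.28 on both, against -0.06 to 0.06 and -0.07 to 0.10 in the others. The longest quintile of genes by exon length, whose own median was 0.05, held 14 of the adhesion genes, 26 of the channels, 23 of the scaffolds, 23 of the autism genes and 11 of the 32 glutamate receptor genes.

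Kcnq3, a subunit of the M-current channel that restrains repetitive firing, was at 7.90, 7.71 and 7.76 log2 CPM in KO_abx and at 7.45, 7.46, 7.70 and 7.21 in WT_abx (0.34 ± 0.10, and 0.25 ± 0.10 without the library labelled WT_abx 4, adjusted p = 0.995 and 0.976). The N-type calcium channel gene Cacna1b was at 7.51, 7.34 and 7.50 against 7.12, 7.28, 7.19 and 6.91 (0.32 ± 0.11). Slitrk3, an organiser of inhibitory synapses, was at 5.91, 5.86 and 5.88 against 5.62, 5.81, 5.84 and 5.50 (0.19 ± 0.08). In these 3 genes the KO libraries were all above the WT libraries, narrowly so in Kcnq3 and Slitrk3. Members were named here for a small p in their lists, so their separation follows in part from that choice. The metabotropic receptor gene Grm7 was at 6.0, 5.98 and 5.78 against 5.77, 5.76, 5.75 and 5.59 (0.20 ± 0.09), and Gabra2, of the GABA-A receptor, at 6.25, 5.63 and 5.75 against 5.43, 5.46, 5.17 and 5.72 (0.47 ± 0.27).

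Genes induced by glucocorticoids, the hormones of the stress axis, had a log2 fold below 0 in 17 of 19 members, against 49.7% of all genes (median -0.28, and -0.24 with 3 WT libraries). None passed, and 5 had an unadjusted p under 0.05, all lower (2.17% of all genes). Nfkbia, the inhibitor of NF-kB, was at 3.75, 3.74 and 3.69 log2 CPM in KO_abx and at 4.55, 4.0, 4.34 and 4.19 in WT_abx (-0.54 ± 0.19, adjusted p = 0.995). Sgk1, a kinase induced by the glucocorticoid receptor, was at 5.28, 5.18 and 5.35 against 6.13, 5.67, 6.20 and 5.72 (-0.69 ± 0.30), and Ddit4, an inhibitor of mTORC1, at 5.46, 5.35 and 5.47 against 6.12, 5.68, 6.27 and 5.78 (-0.55 ± 0.25). All KO values lay below all WT values in these 3 genes, which were named for the smallest p of the list. The same was true of 7 of the 19 members (2.69% of all genes). The list score did overlap, with KO_abx 2 at 0.01 and WT_abx 2 at -0.10. In the water group the list median was on the other side of 0, at 0.18, and no member passed the test of that difference.

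Sterol synthesis showed 22 of 24 members below 0 (median -0.11, and -0.12 with 3 WT libraries), with Idi1 first and Msmo1 next (-0.23 ± 0.11), while Dhcr7, the last enzyme of the pathway, was at 0.18 ± 0.08. The 14 measured genes of acetate uptake and acetyl-CoA formation had a median of -0.03, and -0.05 with 3 WT libraries. Acss1, the mitochondrial acetyl-CoA synthetase, was at 4.35, 4.73 and 4.67 log2 CPM in KO_abx against 4.77, 4.67, 4.72 and 5.04 in WT_abx (-0.21 ± 0.11), and the groups overlapped. The 23 histone acetyltransferases and deacetylases had medians of 0.01 and 0.0016, with Hdac6, a tubulin deacetylase, at 0.17 ± 0.10 and Hat1 at -0.22 ± 0.11. Medians with 4 and with 3 WT libraries were 0.04 and 0.01 for the GABA synapse, 0.02 and 0.02 for the circadian clock, -0.0045 and -0.06 for heat shock and protein folding, and 0.03 and -0.06 for neuropeptides and their receptors. None of these members passed.

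Markers of other cell types were not level between the libraries, and in bulk tissue fewer cells of a type cannot be told apart from less RNA per cell. All 5 measured blood genes had a log2 fold below 0 (median -0.92, and -1.02 with 3 WT libraries), with the haemoglobin gene Hba-a2 at 5.06, 5.42 and 4.25 log2 CPM in KO_abx and at 5.96, 6.32, 5.50 and 5.54 in WT_abx (-0.96 ± 0.40, adjusted p = 0.995). Alas2, the erythroid enzyme that starts haem synthesis, was at 0.94, 0.57 and -0.38 against 1.43, 2.16, 1.26 and 1.02 (-1.15 ± 0.42). Both genes, named for a small p in the list, were lower in every KO library than in every WT library. The list median was -0.57 without KO_abx 3. Oligodendrocyte markers were below 0 in 17 of 19 members (median -0.37), and in 14 of 19 with 3 WT libraries (-0.22), but their scores were -0.80, -0.14 and 0.71 in KO_abx and 0.49, -0.11, -0.16 and 0.44 in WT_abx, a spread within KO wider than the difference between the groups, and the median was 0.09 without KO_abx 1 and -0.93 without KO_abx 3. Their myelin gene Mal was at 5.91, 6.71 and 7.52 log2 CPM in KO_abx (-0.52 ± 0.43).

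Upper-layer neuron markers were above 0 in 8 of 10 members (median 0.27, and 0.17 with 3 WT libraries) and deep-layer markers below 0 in 12 of 13 (-0.24 and -0.27), without a member past the threshold or at an unadjusted p under 0.05. Cux2, of layers II to IV, was at 7.30, 7.18 and 6.97 log2 CPM in KO_abx and at 7.02, 6.81, 6.72 and 6.73 in WT_abx (0.35 ± 0.24), and Tle4, of layer VI, at 5.15, 4.98 and 5.58 against 5.32, 5.63, 5.81 and 5.41 (-0.33 ± 0.22). The groups met or overlapped in both. The deep-layer score was -0.43 in KO_abx 2 and 0.08 and 0.14 in the other KO libraries, and the list median ran from -0.42 without KO_abx 3 to -0.06 without KO_abx 2. Endothelial markers had a median of -0.21 with 4 WT libraries and -0.07 with 3, astrocyte markers -0.15 and -0.05, and pericyte and smooth muscle markers -0.14 and -0.01. For interneurons, oligodendrocyte precursors, microglia, excitatory neurons and striatal neurons the medians were -0.05, -0.06, -0.01, 0.04 and 0.08 with 4 WT libraries, and -0.10, -0.02, 0.05, -0.0001 and -0.0001 with 3.

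The signs of the meningeal and choroid plexus medians depended on single libraries and settings. The library labelled WT_abx 4 had scores of 2.32 and 2.37 on these lists, above the other 28 libraries of the series (at most 1.15 and 1.14). The other WT_abx libraries ran from -0.81 to 0.38 and from -0.88 to -0.08. The meningeal median was -0.07 with the library labelled WT_abx 4 and 0.58 without it, and the choroid plexus median -0.04 and 0.52. With it kept, the meningeal median was 0.58 without KO_abx 3, and the choroid plexus median was 0.09 without KO_abx 2 and 0.07 with only antibiotic libraries fitted. A stricter filter on low genes also turned each sign, to 0.03. KO_abx 1 had the next highest meningeal score of the 7 (1.17), while KO_abx 3 was at -0.48. Ttr stayed at 2, 10 and 14 reads in KO_abx and at 3, 1 and 1 in WT_abx 1 to 3. The interferon-stimulated list had a median of -0.03 with the library labelled WT_abx 4 and 0.12 without it. The part of these markers in the other results was not tested.

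**Figure D5:**
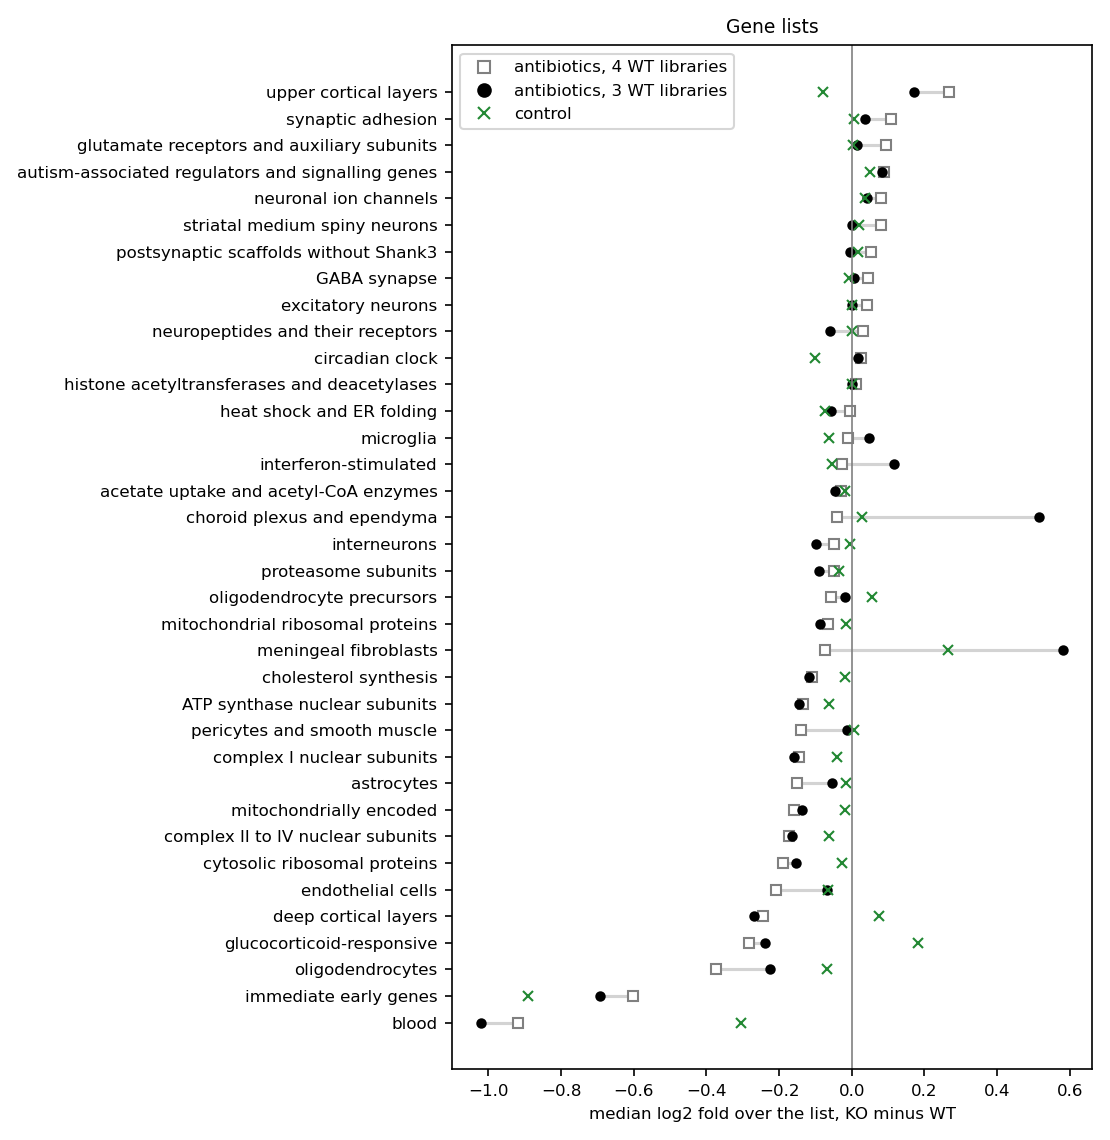
Median log2 fold of KO minus WT (horizontal axis) over the members of each of 36 gene lists, under antibiotics with 4 WT libraries (open squares), with 3 (black points), and in the water group (green crosses). Immediate early genes (-0.60 and -0.69) and blood genes (-0.92 and -1.02) lie farthest to the left, and the meningeal and choroid plexus medians move from below 0 to above 0.5 when the library labelled WT_abx 4 is left out.

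Whether the genotype difference under antibiotics departed from that in the other treatments was tested by 3 interactions. Against control, acetate, and antibiotics with acetate, limma called 0 genes in each, with 368, 688 and 561 genes at an unadjusted p under 0.05 (2.47%, 4.63% and 3.77%), and with voom observation weights 0 genes again, with 383, 674 and 510. The smallest adjusted p was 0.0730, for Gm2897 against control. Its log2 fold was -1.09 ± 0.27 under antibiotics and 0.90 ± 0.23 in control, a difference of -1.99 ± 0.36, and -1.91 ± 0.37 (adjusted p = 0.140) without the library labelled WT_abx 4. For Fam212a the 2 folds were 1.17 ± 0.28 and -0.62 ± 0.24, a difference of 1.79 ± 0.37 (adjusted p = 0.222). Both genes had few reads in the antibiotic libraries, 11 to 37 for Gm2897 and 9 to 35 for Fam212a. Among genes with a mean of at least 2 log2 CPM, the smallest adjusted p against control was 0.9998 in limma, for Slc35f2. For Shank3 the difference from control was 0.43 ± 0.26 with 4 WT libraries and 0.22 ± 0.23 with 3, and for Acr -0.97 ± 1.01 and 0.05 ± 0.80. These comparisons share the antibiotic libraries and are therefore not independent of each other. In this and every other comparison with WT under acetate, the WT group includes WT_acetate 2 and 5, the libraries with intermediate Shank3 and raised Acr. Without these and the library labelled WT_abx 4, the interaction with acetate again called 0 genes.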

How the data were processed

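RNA of bulk mPFC was sequenced in paired reads from directional libraries, per the labels' protocols. The authors deposited 1 matrix of log2 CPM, with 0.5 added to each read count before scaling and the log, per the file's name and values. Limma is named in the submitters' processing notes, without a version. The aligner, counting tool, filter and genome build are not stated in the sources used here. All values came out as whole reads (tolerance 0.01). Positions and exon lengths are from GENCODE vM21 (GRCm38), matched by symbol for 14405 genes (96.9%), and promoters from RefSeq.

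Here limma 3.58.1 (R 4.3.3) was fitted to the log2 values of 35 libraries, with 8 group means, labelled sex and a variance trend. P-values were 2-sided, Benjamini-Hochberg adjusted over all genes, threshold 0.05. The model was also run on simulated data, and no outcome of that run is given here. Named genes were those past the threshold, the 12 smallest p in each direction, the 5 chromosome 15 neighbours on each side where measured, and the Shank family. In each list the 3 members with the smallest p in the fit on 35 libraries were added. Members and lists were chosen with earlier results of these data known, so lists were described by counts and medians, with no test. Alternatives changed the libraries, sex term, filter, scaling, weights, prior variance and pseudocount.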

Additional observations from a re-analysis of the deposited data

Results flagged for a closer look

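Of 175 values tested in WT_abx, the group of 4, 10 had 1 library farther from the rest than Dixon's 95% critical value for 4 samples allows. For independent values chance alone does this in about 1 in 20 groups. These values share their libraries and many were named for a small p, so that rate cannot say whether 10 is more than chance gives. The library labelled WT_abx 4 stood apart in Acr (4.56 log2 CPM, against -0.14 to 0.45), in the glutamate receptor gene Grm7 (5.59, against 5.75 to 5.77) and in Slc17a6, the vesicular glutamate transporter of subcortical neurons (5.18, against 3.65 to 3.85). The library labelled WT_abx 3 stood apart in the chromatin gene Pogz (5.76, against 5.71 to 5.72), in the astrocyte claudin gene Cldn10 (3.77, against 4.43 to 4.49) and in the score of striatal medium spiny neuron markers (0.028, against -0.17 to -0.14). WT_abx 1 stood apart in Shank2 (8.12, against 7.67 to 7.74). WT_abx 2 stood apart in the cytochrome c oxidase gene Cox7a2 (6.22, against 6.09 to 6.10), in the score of glucocorticoid-responsive genes (-0.10, against 0.22 to 0.25) and in that of circadian clock genes (-0.10, against 0.06 to 0.09).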

How the results depend on the processing

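The count of 2 called genes was 1 (Shank3) when only the antibiotic libraries were fitted, and 1 to 3 when each library was left out in turn: 1 without WT_abx 1, 2 or 3 or KO_abx 1 or 2, 2 (Shank3 and Gm2260) without KO_abx 3, and 3 without the library labelled WT_abx 4. Without that library the count of 3 ran from 2 to 4 over its alternatives, with Fgl1 lost in those that gave 2 and, with Gm2260 in its place, without KO_abx 3, and Fam212a added without the variance trend. The interaction with control gave 1 gene, Gm2897, under quantile normalization and without the variance trend, and 0 to 1 when libraries were left out (Gm2897 without WT_abx 2, Gm2260 without KO_abx 3). That with acetate gave 0 to 1 (Gm2260 without KO_abx 3). The exact permutation p for Shank3 was 0.0667 to 0.10 when a library was left out, each the smallest possible at that size. The longest minus the shortest quintile by exon length was 0.07 to 0.13 when libraries were left out, and 0.07 by genomic span, an alternative chosen after seeing the data, as was leaving out the libraries labelled WT_abx 3 and WT_abx 4 together, which called 2 genes. Of 36 list medians, 17 changed sign in some alternative. Scaling moved the median of all genes to no more than 0.0035. No paired analysis was possible because the labels carry no replicate numbers. Depth limits genes near the floor: 851 of 14870 had a mean below 0 log2 CPM.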
